A study of Mus musculus with 28 samples.

Results

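The genes of mouse embryonic stem (ES) cells that lack DNA methyltransferases were compared with and without knockdown of Kap1, whose gene symbol is Trim28. Members were the 3 RNA libraries of DNMT TKO cells with a hairpin against Kap1 (shKap1) and the 3 of DNMT TKO cells with the control vector (shEmpty), 6 of the 28 samples of the series and 6 of its 16 RNA libraries. Of 37991 annotated genes, 20321 had enough reads to be tested, at least 16 over the 16 RNA libraries. DNMT TKO cells are J1 ES cells of strain 129S4/SvJae with Dnmt1, Dnmt3a and Dnmt3b knocked out, and the lines set beside them were wild-type (WT) J1 cells with 3 libraries per hairpin and TET TKO cells (Tet1, Tet2 and Tet3 knocked out) with 2 libraries per hairpin. All groups were grown in N2B27 medium with leukaemia inhibitory factor (LIF), a MEK inhibitor at 1 µM and a GSK3 inhibitor at 3 µM (2i), were transduced with lentiviral hairpin vectors, selected with puromycin at 4 µg/mL and collected after 5 days. Each genotype was 1 line, and the DNMT TKO and TET TKO lines were made by other research groups, so a genotype and its line cannot be told apart. The study calls the libraries of a group independent experiments, while the labels give only a replicate number.

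KAP1 is a corepressor without a DNA-binding domain of its own. It is brought to DNA by KRAB zinc finger proteins, assembles the H3K9 methyltransferase SETDB1 and heterochromatin protein 1, and silences retrotransposons, imprinted loci and the genes beside them. DNA methyltransferases add methyl groups to cytosine, a second silencing layer that imprinted control regions and germline gene promoters depend on in most cells. The comparison asked which genes respond to loss of KAP1 when that second layer is absent.

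The knockdown hairpin has a target of 21 bases, shown because every comparison rests on it, with its exact match to Trim28 in capitals:
shKap1 target: CCGCATGTTCAAACAGTTCAA
It has a single exact match in mm9, at chr7:13615908-13615928 on the + strand, within coding exon 16 of Trim28 (chr7:13609501-13616384, + strand).

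Trim28 was measured first, as the check of the labels. Values are CPM (read counts on genes scaled by library size, with TMM factors), changes are log2 ratios of shKap1 to shEmpty with the standard error (SE) of the fit, and adjusted p-values are from edgeR's quasi-likelihood test with Benjamini-Hochberg adjustment over all genes tested. Trim28 stood at 2085, 1819 and 1701 CPM in the 3 shEmpty libraries of DNMT TKO and at 327, 448 and 506 CPM in the 3 shKap1 libraries. Every shKap1 library lay far below every shEmpty library, yet all of them kept a clear Trim28 level, and the mean went from 1868 ± 197 to 427 ± 91.5 CPM (SD, n = 3). That left 22.9% of the shEmpty level, a log2 change of -2.13 ± 0.15 (adjusted p = 2.6e-07). WT cells went from 1991, 1639 and 1627 CPM to 190, 156 and 149 CPM, which left 9.42% (-3.41 ± 0.16, adjusted p = 2.2e-09). TET TKO cells went from 1771 and 1898 CPM to 163 and 168 CPM, which left 9.03%. The shKap1 values of DNMT TKO lay above those of both other lines with no overlap, while the shEmpty values of the 3 lines overlapped. The loss of Trim28 was weaker in DNMT TKO than in WT by 1.28 ± 0.21 on the log2 scale (adjusted p = 8.0e-04) and weaker than in TET TKO by 1.34 ± 0.23 (adjusted p = 0.0025). Depth of knockdown and genotype therefore cannot be told apart in any difference between the lines given here.

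**Figure D1:**
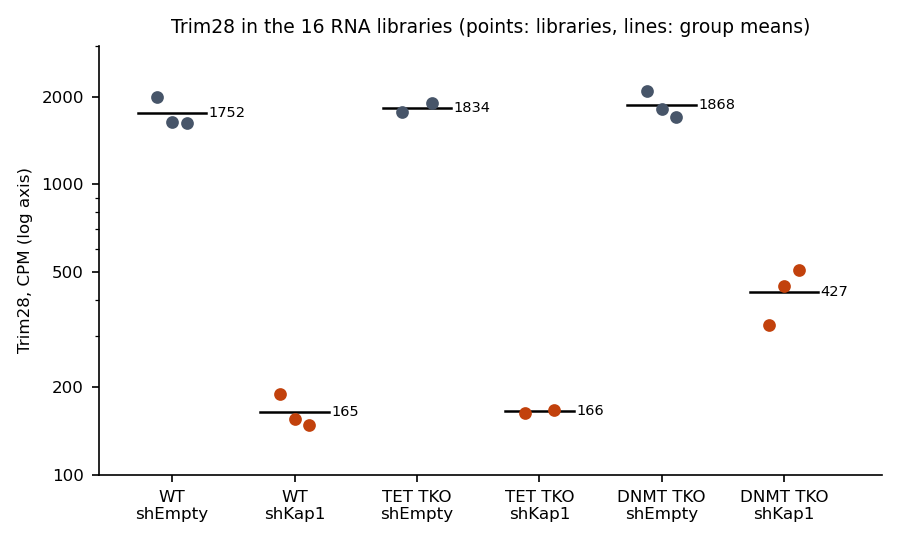
Trim28 in CPM on a log axis in each of the 16 RNA libraries (points), with the mean of each genotype and hairpin (lines). The 3 DNMT TKO shKap1 libraries sit between 327 and 506 CPM, above the 5 shKap1 libraries of WT and TET TKO, which sit between 149 and 190 CPM.

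Reads were still found on the 3 disrupted genes. Dnmt1, the maintenance methyltransferase, read 157, 156 and 156 CPM in shEmpty and 139, 135 and 132 CPM in shKap1, a fall under 2-fold (-0.21 ± 0.05, adjusted p = 0.0016). Dnmt3a, a de novo methyltransferase, read 6.55, 8.49 and 7.90 CPM in shEmpty and 13.1, 14.4 and 15.2 CPM in shKap1, a gain under 2-fold (0.89 ± 0.16, adjusted p = 6.7e-04). Dnmt3b, the other de novo enzyme, read 32.9, 20.2 and 22.4 CPM against 17.2, 13.4 and 13.9 CPM (-0.75 ± 0.22, adjusted p = 0.02). Groups were apart for all 3, and none was called, since a call here asks for both a 2-fold change or more and an adjusted p under 0.05. In WT shEmpty cells the same genes stood at means of 490, 63.0 and 156 CPM. These reads fall anywhere on the genes and the deleted parts are not given here, so they do not check the knockout.

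Depth was 20134172 to 29257911 reads on genes in the 6 DNMT TKO libraries and 18108431 to 29373696 over all 16. The shEmpty libraries had reads on 19860 to 20633 genes and the shKap1 libraries on 21153 to 21630. In the principal components of the 6 libraries the first (69.1% of the variance) separated the hairpins, and the second (14.4%) set replicate 1 of both hairpins apart from replicates 2 and 3. For genes named by the rule in the section on processing, values without a library are given where they end a call or move it by over 1.5 times. For genes named after their values were seen none are given. The 8 markers of ES cells summed to 5310 to 5647 CPM in shEmpty and 3543 to 4184 CPM in shKap1, with 1 of the 8 called down (Zfp42). Markers of fibroblasts (feeder cells) summed to 10.0 to 17.5 CPM and 12.5 to 16.5 CPM, with Fap at 0 in all 6 libraries, Dcn and Twist2 at 0 in shEmpty, and 1 of 8 tested called up (Col1a1). Markers of primitive endoderm summed to 5.89 to 9.10 CPM and 10.5 to 13.1 CPM, with 1 of 6 called up (Sox17). Those of trophectoderm summed to 6.11 to 7.92 CPM and 2.48 to 3.75 CPM, with 1 of 5 called up and 1 down (Cdx2). Cdx2 alone read 5.47 to 6.50 CPM in shEmpty and 0.927 to 1.15 CPM in shKap1, so it carried the fall of that sum. In bulk RNA, fewer cells of a type and less RNA per cell cannot be told apart.

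At 2-fold or more, knockdown raised far more genes than it lowered. Of 20321 genes tested, 2043 were called up (10.1%) and 490 were called down (2.41%), so 80.7% of the calls were rises. Without the fold threshold the counts were closer, with 4002 higher and 3168 lower at an adjusted p below 0.05. In WT 2200 were called up (10.8%) and 1329 down (6.54%), with rises at 62.3%. The median absolute log2 change was 2.18 among genes called up (2.04 with genes at 0 reads in a whole group set to their bound) and 1.34 among genes called down. With those bounds, 530 genes rose by at least 8-fold (25.9% of those called up) and 8 fell by as much (1.63% of those called down), where the fitted folds alone gave 656 and 11. Most rising genes were low with shEmpty: 1331 of them (65.1%) were below 1 CPM in every shEmpty library, against 31.1% of all genes tested. A gene that low passes the read filter mostly through libraries where it is higher, so this share is only a description. Their median level went from 0.332 to 1.67 CPM. Among genes called down the median level went from 3.01 to 1.2 CPM, and 93 of them (19%) were below 1 CPM in every shEmpty library. In 177 genes called up every shEmpty library had 0 reads. The groups did not overlap for 1990 genes called up (97.4%) and 471 called down (96.1%), against 44.7% of all genes tested. The median over all genes was 0.02 on the log2 scale, and 0.08 when library totals alone set the scale, which moved the share of rises among calls to 83.7%.

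The same genes were called up in both lines in 1147 cases, which is 56.1% of the rises in DNMT TKO and 52.1% of those in WT. For falls the shared calls numbered 279, which is 56.9% of those in DNMT TKO and 21% of those in WT. A test of the difference itself found a more positive knockdown effect in DNMT TKO for 946 genes (4.66%) and a more negative one for 504 (2.48%). Of the 946, 548 were called down in WT and 330 were called up in DNMT TKO, while of the 504, 380 were called up in WT. Opposite calls were made for 45 genes, 41 of them up in DNMT TKO and down in WT. Of the 896 genes called up in DNMT TKO and not in WT, 299 had a difference that was itself called.

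**Figure D2:**
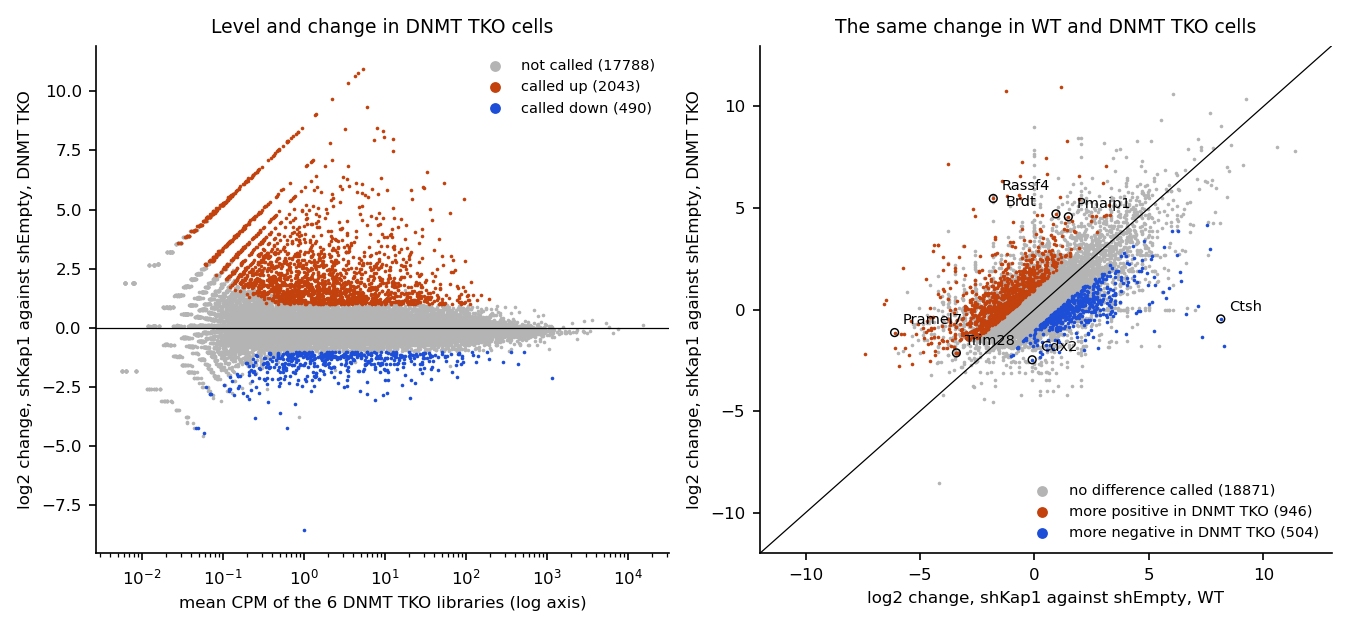
Left, mean CPM of the 6 DNMT TKO libraries (log axis) against the log2 change on knockdown for the genes tested, coloured by call; right, the log2 change in WT against that in DNMT TKO, coloured by the call of the difference, with the line of equal change. Rises reach further than falls at low levels, and labelled genes far from the line, such as Rassf4 above it and Ctsh below it, changed differently in the 2 lines.

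The largest rises among genes with at least 500 reads over the 6 libraries were of genes with almost no reads before knockdown. Gm14047 (chr2:129195633-129201484, + strand) had 0 reads in all 3 shEmpty libraries and 16.8, 7.34 and 7.86 CPM in shKap1, at least 258-fold higher against a floor of 3 reads over the shEmpty group (adjusted p = 3.1e-08). In WT its level was at most 0.0866 CPM with either hairpin, and the difference between lines was called (adjusted p = 0.023), with a fitted size that rests on the shEmpty group at 0 reads. D930020E02Rik (chr14:69907401-69912356, - strand) likewise went from 0 reads in every shEmpty library to 7.01, 11.3 and 9.64 CPM, at least 233-fold, and its difference from WT was likewise called (adjusted p = 3.9e-05). Gm1698 rose from 0 reads to 10.9, 6.40 and 8.05 CPM, at least 209-fold, and was called up in WT too, from 0 reads to between 0.315 and 0.373 CPM. Ugt3a2, a UDP-glycosyltransferase, had 0, 0 and 0.0385 CPM in shEmpty and 15.4, 10.8 and 10.2 CPM in shKap1 (9.34 ± 0.45, adjusted p = 7.7e-11; 11.12 without shEmpty replicate 3). Slpi, a secreted inhibitor of leukocyte proteases, had 0, 0 and 0.116 CPM in shEmpty and 21.5, 12.8 and 13.3 CPM in shKap1 (8.45 ± 0.46, adjusted p = 3.4e-10; 11.51 without shEmpty replicate 3, 7.78 without shEmpty replicate 2 and 7.74 without both replicates 1). For these genes the size of the fold rests on a few control reads, and groups that do not overlap were a condition of the choice.

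1700018A04Rik, Gm16572, Gm1110, Fbxw15 and Olfml2a completed the 10 largest of these rises, each with at most 0.154 CPM in any shEmpty library and at least 11.5 CPM in every shKap1 library. Olfml2a, a secreted olfactomedin-domain protein (chr2:38787498-38819273, + strand), had 0.102, 0.138 and 0.154 CPM in shEmpty and 30.9, 22.5 and 21.4 CPM in shKap1 (7.48 ± 0.36, adjusted p = 7.8e-11). WT cells stayed at 0.157 to 0.746 CPM after knockdown, and the difference was 7.00 (adjusted p = 2.0e-06). 1700018A04Rik rose by 8.32 ± 0.36 (9.48 without shEmpty replicate 3), again with a called difference from WT (6.87, adjusted p = 0.013). Gm16572 (8.08 ± 0.29; 8.69 without shEmpty replicate 3), Gm1110 (8.00 ± 0.39) and Fbxw15 (7.94 ± 0.36) were called up in WT as well, where their shEmpty libraries had 0 reads. Gm16572 alone of the 10 had an IAPEz retrotransposon and a region of KAP1-dependent H3K9me3 within 2 kb of its start. Ugt3a2 and Fbxw15 had such an H3K9me3 region within 10 kb, and the other genes had neither feature within that distance.

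Rassf4, which encodes a Ras-association domain protein, was called in opposite directions in the 2 lines. Rassf4 (chr6:116583026-116623854, - strand) read 4.57, 3.49 and 4.59 CPM in the shEmpty libraries of DNMT TKO and 252, 158 and 146 CPM in the shKap1 libraries. In WT it read 3.83, 4.55 and 4.92 CPM in shEmpty and 1.26, 0.953 and 1.71 CPM in shKap1. The shEmpty libraries of both lines overlapped and the shKap1 libraries were far apart, with a rise of 5.47 ± 0.22 in DNMT TKO (adjusted p = 6.2e-10), a fall of 1.80 on the log2 scale in WT (adjusted p = 4.3e-04) and a difference of 7.27 (adjusted p = 2.8e-08). Sh3tc2, a protein of endosomal recycling, went the same way, from 0.0508, 0.207 and 0.385 CPM to 12.5, 10.7 and 10.7 CPM in DNMT TKO (5.61 ± 0.54, adjusted p = 1.9e-06; 6.23 without shEmpty replicate 3), while it fell in WT (difference 6.82, adjusted p = 9.3e-06). BC067074 also gained many reads, from 15.4, 28.6 and 28.6 CPM to 162, 185 and 171 CPM (2.82 ± 0.20, adjusted p = 5.7e-07), close to its change in WT (2.95). Pttg1, the securin that restrains separase in mitosis, rose from 34.4, 55.3 and 54.4 CPM to 194, 174 and 183 CPM (1.93 ± 0.14, adjusted p = 1.5e-07; difference from WT 1.35, adjusted p = 2.4e-04). Cwc22, a splicing factor, read 117, 111 and 117 CPM against 207, 347 and 247 CPM (1.21 ± 0.13, adjusted p = 8.5e-06; 0.95 without shKap1 replicate 2, under 2-fold). Whsc2, a subunit of the negative elongation factor, read 81.7, 89.3 and 81.9 CPM against 164, 289 and 209 CPM (1.39 ± 0.14, adjusted p = 6.7e-06).

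Falls were smaller among genes with at least 500 reads, and most of the largest were shared with WT. Tmem132d, named after its values were seen and with 149 reads in all, fell further, from 2.08, 2.11 and 1.81 CPM to 0 reads in every shKap1 library (at least 46.0-fold lower). Gng2, a G-protein gamma subunit, read 15.1, 12.8 and 12.3 CPM in shEmpty and 1.73, 1.41 and 1.67 CPM in shKap1 (-3.05 ± 0.31, adjusted p = 2.6e-06). Pla2g1b, a secreted phospholipase, read 42, 35.9 and 30.3 CPM against 3.55, 4.94 and 5.30 CPM (-2.96 ± 0.25, adjusted p = 5.6e-07). Lad1, a basement-membrane anchoring protein, read 8.58, 21.9 and 19.5 CPM against 1.06, 3.20 and 2.67 CPM (-2.85 ± 0.44, adjusted p = 2.9e-04). Groups that do not overlap were a condition of the choice, and each of these 3 was called down in WT. C330046G13Rik (-2.77 ± 0.24) and Pgc, the gastric proenzyme progastricsin (-2.67 ± 0.24), fell less than in WT, by 3.14 (adjusted p = 2.1e-04) and 2.70 (adjusted p = 1.6e-04). A230050P20Rik (-2.73), Gm6792 (-2.39) and Gm364 (-2.31) changed by nearly the same amount in WT (-2.78, -2.63 and -2.40). Among called genes, the largest losses of mean CPM beside Trim28 were those of Zfp42, Cobl, Ckb and Kit. Ckb, the brain creatine kinase, read 633, 737 and 722 CPM against 318, 328 and 389 CPM (-1.02 ± 0.12, adjusted p = 1.3e-05; -0.98 without shKap1 replicate 1, under 2-fold). Kit, the stem cell factor receptor, read 460, 499 and 494 CPM against 162, 288 and 266 CPM (-1.02 ± 0.15, adjusted p = 1.4e-04; -0.83 without shKap1 replicate 1 and -0.87 without both replicates 1, under 2-fold).

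Gene lists, 31 in all, were then read, each as its count of calls beside the 10.1% up, 2.41% down and median of 0.02 over all genes tested. They were chosen with earlier results of these data known, so a count is a description and a list was given no test. A list's counts in WT are given beside its own, and for some lists the number of members with a called difference.

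**Figure D3:**
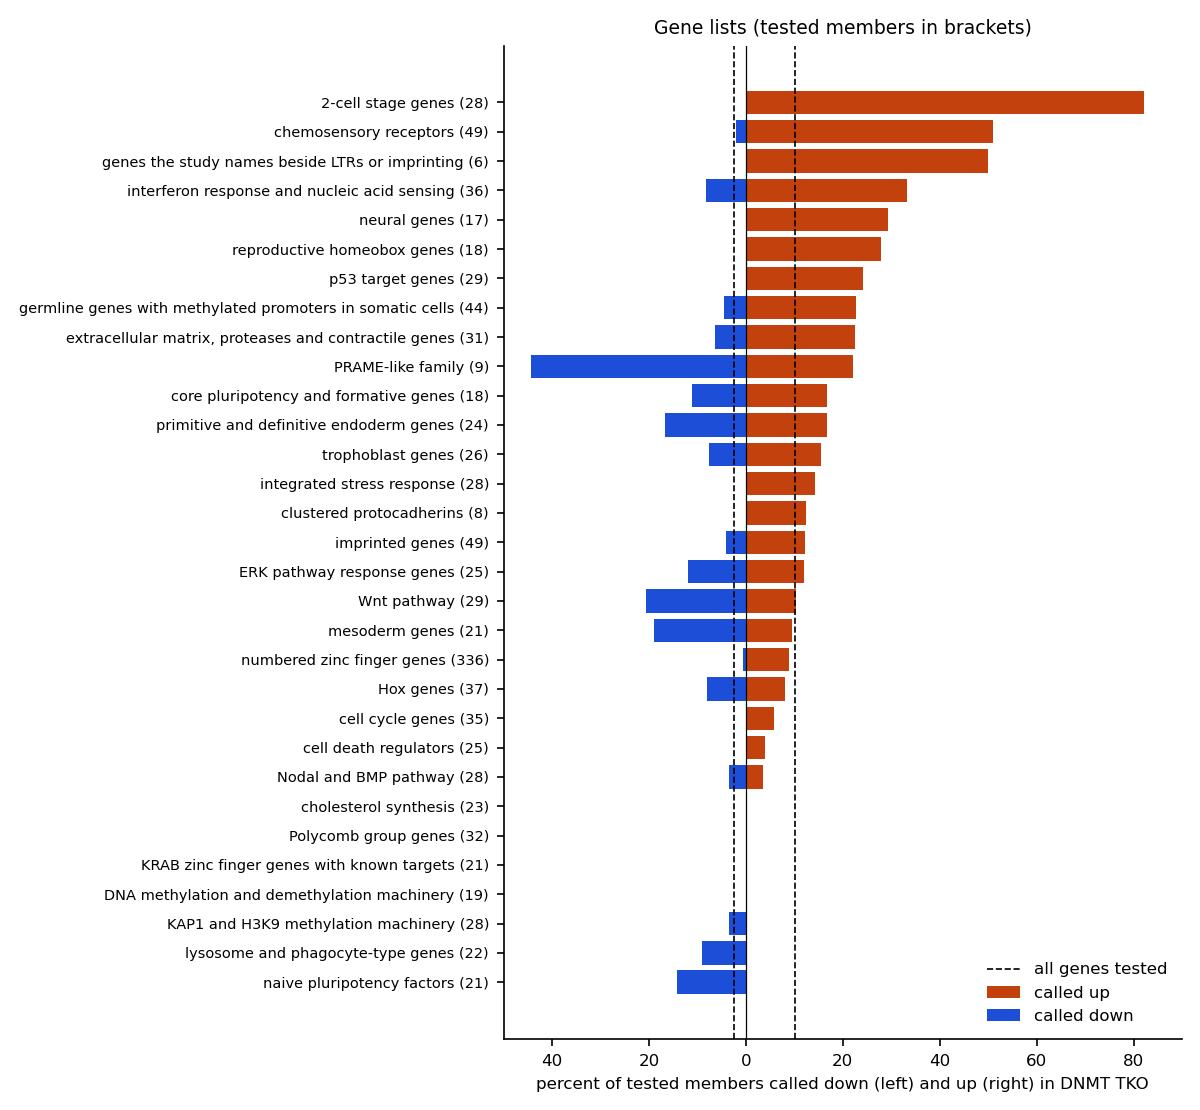
Percent of tested members called down (left of 0) and up (right of 0) on knockdown in DNMT TKO for each gene list, with the number tested in brackets; dashed lines mark 2.41% down and 10.1% up over all genes tested. The 2-cell list reaches 82.1% up, and the PRAME-like list has the highest share down, 4 of 9 genes.

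Genes of the 2-cell embryo were the list with the largest share of rises. Of 28 tested, 23 were called up (82.1%) and none down, with a median of 2.58 (2.43 with genes at 0 in shEmpty set to their bound), and 22 of the 23 were among the 27 called up in WT. Dux, the transcription factor that switches on this programme, had 0.0508, 0.138 and 0.154 CPM in shEmpty and 3.31, 5.55 and 4.41 CPM in shKap1 (5.14 ± 0.43, adjusted p = 7.7e-08). Tmem92 had 1.27, 5.18 and 5.94 CPM against 93.5, 161 and 117 CPM (4.84 ± 0.45, adjusted p = 9.6e-06). Zscan4b, a telomere-linked zinc finger gene that marks 2-cell-like cells, had 0.559, 0.621 and 0.540 CPM against 5.28, 12.4 and 7.27 CPM (3.84 ± 0.37, adjusted p = 2.4e-06). In each of the 3 the groups were apart, and no difference from WT was called. Tdpoz3, of a family read in early embryos, had 0.203, 0.690 and 0.848 CPM against 6.10, 8.89 and 6.16 CPM (3.51 ± 0.26, adjusted p = 1.8e-08). Zscan4, Tdpoz and Usp17l genes lie in near-identical copies, and how unique reads fell among the copies is uncertain. Usp17la, Usp17lb and Usp17le, ubiquitin proteases named after their values were seen, were the members with a called difference in the negative direction, and they rose in WT (2.57, 2.85 and 2.93) while in DNMT TKO their log2 changes were 0.13, -0.02 and 0.70. Zfp750, a zinc finger gene also named after its values were seen, had the only called difference in the positive direction (1.09 in DNMT TKO and -0.92 in WT, difference 2.02, adjusted p = 0.001). An MERVL element or its MT2_Mm LTR lay within 10 kb of the start of 10 of the 28 genes and of 9 of the 23 called up. The share was 2.41% over all genes tested and 5.58% over all genes called up. Markers of 2-cell-like cells, of which 3 of 4 were among the counted genes, summed to 4.72 to 14.8 CPM in shEmpty and 47.1 to 104 CPM in shKap1. In WT they summed to 10.2 to 19.7 CPM in shEmpty and 154 to 171 CPM in shKap1. The letters TGATT, any base and AATCA, a form of the sequence that Dux is known to bind, were searched on both strands in the 300 bases from 250 before to 50 after each start, and were found in 0 of these 28 genes, 0 of the 2043 genes called up and 4 of 20321 windows of all genes tested (0.0197%), which says only that the letters are not in these windows.

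PRAME-like genes, which encode leucine-rich repeat proteins of early embryos and germ cells, moved in both directions. Of 9 tested, 2 were called up and 4 down, with a median of -0.96 (WT 2 up and 3 down). Pramef6 had 0.152, 0.173 and 0.116 CPM in shEmpty and 8.12, 13.5 and 9.72 CPM in shKap1 (6.09 ± 0.31, adjusted p = 1.8e-10). Pramel6, an inhibitor of Uhrf1 in naive cells, read 51.9, 66.0 and 70.3 CPM against 21.8, 34.7 and 25.2 CPM (-1.21 ± 0.29, adjusted p = 0.007). Pramel7, its close relative with the same role, read 17.1, 22.6 and 24.0 CPM against 8.93, 10.3 and 10.0 CPM (-1.13 ± 0.25, adjusted p = 0.003). Both fell in DNMT TKO and fell much further in WT (-5.84 and -6.11), with differences of 4.63 (adjusted p = 9.7e-04) and 4.98 (adjusted p = 7.2e-05). Pramef8 read 14, 13.8 and 13.5 CPM against 5.76, 7.76 and 7.01 CPM (-1.0 ± 0.11; -0.92 without shKap1 replicate 1 and -0.91 without both replicates 1, under 2-fold), where WT had 0.64 (difference -1.64, adjusted p = 4.9e-07).

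Germline genes whose promoters carry DNA methylation in somatic cells were called up at a share above that of all genes. Of 44 tested, 10 were called up (22.7%) and 2 down, with a median of 0.37, and in WT 10 were called up and 8 down. Brdt, the testis bromodomain protein (chr5:107760178-107816077, + strand), had 0.457, 0.414 and 0.617 CPM in shEmpty and 14, 14.5 and 10.9 CPM in shKap1 (4.71 ± 0.25, adjusted p = 2.4e-10). WT cells reached 1.42 to 2.29 CPM, and the difference was 3.76 (adjusted p = 2.0e-06). Tex13, an X-linked testis gene, had 2.74, 9.05 and 7.32 CPM against 47.3, 55.2 and 49.0 CPM (2.95 ± 0.51, adjusted p = 9.0e-04), where WT shEmpty and shKap1 libraries overlapped (difference 3.20, adjusted p = 0.0086). Tex101, a sperm surface protein, had 0.457, 0.863 and 0.540 CPM against 6.68, 6.21 and 4.97 CPM (3.21 ± 0.25, adjusted p = 3.4e-08; difference 2.35, adjusted p = 0.0027). For Brdt and Tex101 the shEmpty levels were under 2 CPM in both lines, while Tex13 stood higher in WT shEmpty replicates 2 and 3 than in any shEmpty library of DNMT TKO. Tdrkh, a Tudor protein of the piRNA pathway, had 0.914, 1.59 and 1.16 CPM against 7.54, 9.36 and 8.05 CPM (2.74 ± 0.20, adjusted p = 1.1e-08), and rose in WT too. Dazl, the germ cell RNA-binding protein, and Tdrd12, a piRNA helicase, were named after their values were seen. Dazl read 382, 506 and 535 CPM in shEmpty, against 17.2 to 25.6 CPM in WT, and 281, 355 and 266 CPM in shKap1, a fall under 2-fold (-0.66 ± 0.15, adjusted p = 0.0047). Tdrd12 read 121, 123 and 128 CPM against 51.5, 52.1 and 58.9 CPM and was called down (-1.19 ± 0.11, adjusted p = 2.3e-07). A difference from WT was called for 9 of the 44, more positive in 8 and more negative in 1.

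Reproductive homeobox (Rhox) genes, an X-linked cluster silenced by DNA methylation in the embryo, numbered 18 tested, with 5 called up and none down (median 0.64). WT had 1 up and 1 down. In DNMT TKO shEmpty 15 of the 18 had a mean below 1 CPM. Genes that low pass the read filter mostly through libraries where they are higher, so the counts of both lines are only a description. Rhox2h was the member with enough reads to describe, at 0.762, 0.518 and 0.578 CPM in shEmpty and 1.01, 1.5 and 1.52 CPM in shKap1 (1.14 ± 0.30, adjusted p = 0.0085; 0.99 without shEmpty replicate 2, under 2-fold), and it had 0 reads in all 6 WT libraries. Rhox2 genes are near-identical copies, and DESeq2 called 2 of the 18 and not Rhox2h. The clustered protocadherins, neuronal adhesion proteins chosen from arrays of promoters, had 8 of their genes tested, with 1 called up (WT 3 up). It was annotated as Pcdha11 over chr18:37089939-37347311, the extent of the alpha array, so its reads may pool several alternative isoforms. It read 0.559, 0.690 and 0.501 CPM against 18.3, 14.3 and 12.1 CPM (4.65 ± 0.24, adjusted p = 1.8e-10), more than in WT (difference 1.34, adjusted p = 0.031).

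Imprinted genes changed little as a list. Of 49 tested, 6 were called up and 2 down with a median of 0.04, where WT had 17 up and 3 down, and the difference was called more negative for 11 and more positive for 3. Igf2, the paternally expressed growth factor, had 1.37, 1.00 and 1.35 CPM in shEmpty and 39.4, 25.3 and 25.3 CPM in shKap1 (4.61 ± 0.31, adjusted p = 1.5e-07). It rose from 5.83, 10.6 and 12.4 CPM to 91.3, 79.3 and 67.5 CPM in WT, a smaller fold (difference 1.59, adjusted p = 0.015). Magel2, of the Prader-Willi cluster, had 0.762, 0.518 and 0.540 CPM against 3.17, 3.53 and 3.19 CPM (2.46 ± 0.28, adjusted p = 2.4e-06), a smaller fold than in WT (difference -2.22, adjusted p = 0.0041). WT had 0.167, 0.0356 and 0.248 CPM in shEmpty and 4.77, 3.38 and 3.68 CPM in shKap1. The shKap1 libraries of the lines overlapped, so the size of that difference rests on WT controls near 0. Ascl2, a maternally expressed factor of the trophoblast, had 1.32, 0.829 and 1.12 CPM against 5.04, 4.04 and 4.52 CPM (2.08 ± 0.31, adjusted p = 4.9e-05). Dio3, a deiodinase at the end of the Dlk1-Meg3 domain, fell from 11.2, 12.2 and 12.3 CPM to 4.71, 3.71 and 4.52 CPM (-1.46 ± 0.16, adjusted p = 2.1e-06), less than in WT (difference 1.35, adjusted p = 0.0022). Cobl, an actin nucleator beside Grb10, read 438, 403 and 403 CPM against 115, 174 and 168 CPM (-1.45 ± 0.16, adjusted p = 2.1e-05; difference 1.76, adjusted p = 2.1e-04).

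Meg3, Rian, Peg3 and Peg10, named after their values were seen, show where the lines parted. Meg3, the maternally expressed non-coding RNA, read 540, 521 and 529 CPM in shEmpty and 316, 444 and 463 CPM in shKap1, a fall under 2-fold (-0.38 ± 0.11, adjusted p = 0.016). Its WT libraries went from 309, 264 and 261 CPM to 638, 584 and 565 CPM and were called up (difference -1.48, adjusted p = 1.5e-05). Rian, its neighbour, read 665, 630 and 641 CPM against 353, 495 and 521 CPM, a fall under 2-fold (-0.50 ± 0.12, adjusted p = 0.0045), while WT had 0.96 (difference -1.46, adjusted p = 3.6e-05). Peg3, a paternally expressed zinc finger gene, read 72.4, 63.4 and 65.5 CPM against 76.8, 68.0 and 65.8 CPM with overlap (0.07 ± 0.10, adjusted p = 0.65; difference -1.10, adjusted p = 2.5e-05). Peg10, a retrotransposon-derived placental gene, read 27, 25.0 and 23.6 CPM against 60.7, 56.2 and 52.0 CPM (1.16 ± 0.33, adjusted p = 0.017; difference -1.62, adjusted p = 0.026). The shEmpty libraries of DNMT TKO were above all those of WT for Meg3 and Rian, overlapped with them for Peg3 and were below them for Peg10.

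Of 6 genes that the study names, 3 were called up (WT 4 up and 1 down). Bglap3, an osteocalcin-related gene with an IAP promoter, read 12.4, 17.5 and 15 CPM against 77.6, 63.8 and 64.9 CPM (2.19 ± 0.13, adjusted p = 2.6e-09), a smaller fold than in WT (difference -1.11, adjusted p = 6.3e-04). WT went from 5.66, 5.05 and 5.38 CPM to 41.9, 59.5 and 56.9 CPM, so its levels were lower than those of DNMT TKO with both hairpins. Lrrn4, a leucine-rich repeat neuronal protein, read 2.59, 3.42 and 3.93 CPM against 8.36, 13.8 and 10.5 CPM (1.70 ± 0.18, adjusted p = 1.2e-06). Dux was the other. The list was chosen by the study on these samples, so its count is not independent evidence of a direction.

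Most naive pluripotency factors were lower after knockdown, few of them by 2-fold. Of 21 tested, none was called up and 3 were called down (14.3%), with a median of -0.38, and without the fold threshold 13 were lower and 1 higher at an adjusted p below 0.05. WT had 8 called down and a median of -0.75. Zfp42 (Rex1), a naive-state marker, read 665, 648 and 650 CPM in shEmpty and 195, 233 and 255 CPM in shKap1 (-1.52 ± 0.08, adjusted p = 1.3e-10). In WT it read 128, 130 and 130 CPM before and 91.6, 102 and 109 CPM after, so its level was higher in DNMT TKO with both hairpins while its fall was larger there (difference -1.17, adjusted p = 8.4e-07). Tcl1, a cofactor of AKT, read 109, 113 and 111 CPM against 37.3, 41.2 and 49.1 CPM (-1.38 ± 0.15, adjusted p = 5.7e-06), while WT fell to 1.92 to 3.30 CPM (difference 3.16, adjusted p = 1.4e-06). Nr0b1, a nuclear receptor of the naive network, read 66.2, 45.0 and 41.0 CPM against 18.9, 23.2 and 22.0 CPM (-1.24 ± 0.21, adjusted p = 4.6e-04; -0.96 without both replicates 1, under 2-fold; difference from WT 1.92, adjusted p = 6.9e-04). Nanog, Prdm14, Tbx3 and Pou5f1 were named after their values were seen. Nanog read 858, 991 and 1034 CPM against 728, 885 and 875 CPM with overlap (-0.21 ± 0.10, adjusted p = 0.12). Prdm14, which represses Dnmt3 genes, had -0.57 against -2.83 in WT (difference 2.26, adjusted p = 1.5e-06), and Tbx3 had -0.67 against -2.04 (difference 1.37, adjusted p = 1.6e-07). Pou5f1 (Oct4), the core factor, read 739, 664 and 655 CPM against 667, 549 and 624 CPM (-0.16 ± 0.06, adjusted p = 0.055).

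The core and formative list held 3 rises and 2 falls among 18 genes tested (median -0.10), where WT had 2 up and 5 down. Lin28b, which blocks maturation of let-7, read 21, 18.3 and 18.6 CPM against 60.6, 49.0 and 50.9 CPM (1.47 ± 0.08, adjusted p = 4.7e-10). Its paralog Lin28a read 118, 56.3 and 57.2 CPM against 37.9, 25.8 and 34.7 CPM (-1.22 ± 0.33, adjusted p = 0.015), a call lost without shEmpty replicate 1 (-0.82), without shKap1 replicate 2 (-1.11, adjusted p = 0.051) and without both replicates 1 (-0.92, adjusted p = 0.064). Sox3, a SoxB1 factor, read 1.17, 2.11 and 1.89 CPM against 6.10, 8.42 and 6.49 CPM (1.99 ± 0.20, adjusted p = 6.9e-07). Lef1, the Wnt effector, read 6.14, 9.67 and 9.79 CPM against 2.50, 2.92 and 3.49 CPM (-1.52 ± 0.40, adjusted p = 0.0093). Groups were apart for all 4 genes, and no difference from WT was called for them.

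Lineage genes were called in both directions. Mesoderm genes had 2 up and 4 down among 21 (median 0.26), where WT had 8 up and 3 down. T (Brachyury), of the primitive streak, read 7.57, 11.6 and 10.6 CPM against 2.07, 1.98 and 2.04 CPM (-2.29 ± 0.24, adjusted p = 9.5e-07), more than in WT (difference -1.25, adjusted p = 0.023). Kdr, the VEGF receptor, read 6.09, 5.52 and 5.70 CPM against 1.73, 3.10 and 2.04 CPM (-1.33 ± 0.25, adjusted p = 5.1e-04). Tbx20, a cardiac T-box factor, rose by 2.87 ± 0.29 (adjusted p = 6.8e-07) and Mesp2 by 2.04 ± 0.38 (adjusted p = 4.8e-04). Trophoblast genes had 4 up and 2 down among 26 (median 0.03), where WT had 11 up and 3 down (median 0.60) and the difference was called more negative for 4 members. Cdx2, which sets the trophectoderm (chr5:148112381-148118846, - strand), read 6.50, 5.52 and 5.47 CPM against 1.15, 1.08 and 0.927 CPM (-2.47 ± 0.20, adjusted p = 5.4e-08). In WT it read 1.17, 1.67 and 1.63 CPM and 1.47, 1.47 and 1.28 CPM, so the shKap1 levels of the lines were alike in size and the shEmpty levels were not (difference -2.37, adjusted p = 2.3e-05). Gata2 fell by 1.77 ± 0.28 on the log2 scale (adjusted p = 9.1e-05). Fgfr2 was called up at 1.46 ± 0.47 (adjusted p = 0.025), a call lost without shEmpty replicate 2 (1.24, adjusted p = 0.10), shEmpty replicate 3 (1.27, adjusted p = 0.095), shKap1 replicate 1 (1.24, adjusted p = 0.098) or both replicates 1 (1.62, adjusted p = 0.076), and the list's rises dropped to 1 without shEmpty replicate 2 or without shKap1 replicate 1 and to 2 without shEmpty replicate 3 or both replicates 1.

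Endoderm genes had 4 up and 4 down among 24 (median 0.44), where WT had 4 up and 6 down. Lama1, the laminin chain of Reichert's membrane, read 119, 138 and 134 CPM against 39.5, 46.6 and 49.9 CPM (-1.52 ± 0.10, adjusted p = 7.0e-09), less than in WT (difference 1.35, adjusted p = 8.4e-06). Thbd, thrombomodulin, had 0.965, 0.449 and 0.694 CPM against 5.19, 2.35 and 2.78 CPM (2.32 ± 0.36, adjusted p = 7.1e-05). Sox17 rose by 1.61 ± 0.33 (adjusted p = 9.9e-04) and Foxa1 by 1.56 ± 0.32 (adjusted p = 9.0e-04), both endoderm transcription factors. Gata4 and Gata6, master factors of primitive endoderm named after their values were seen, had 0.34 and 0.09 with overlapping groups (adjusted p = 0.38 and 0.84). Neural genes had 5 up and none down by edgeR among 17 (median 0.18), and 3 up without shEmpty replicate 3, where WT had 5 up and 3 down. limma-voom and DESeq2 each called 1 of them down, and neural markers summed to 43.0 to 82.6 CPM in shEmpty and 34.6 to 60.6 CPM in shKap1, with overlap. Pax6, the eye and forebrain factor, read 3.86, 1.73 and 1.81 CPM against 13.6, 6.58 and 5.30 CPM (1.81 ± 0.37, adjusted p = 0.0014). Sox11 had 1.93, 0.552 and 0.694 CPM against 4.27, 2.45 and 3.63 CPM (1.80 ± 0.38, adjusted p = 0.0018; 2.43 without shEmpty replicate 1).

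Hox genes, patterning factors under Polycomb, had 3 up and 3 down among 37 tested (median -0.13), where WT had 10 up and 2 down. limma-voom called 1 up and 4 down. All 37 had an H3K27me3 region of wild-type cells within 10 kb of the start. Hoxc10 read 2.59, 4.00 and 3.58 CPM against 0.432, 1.32 and 1.00 CPM (-1.88 ± 0.39, adjusted p = 0.0013), and its neighbour Hoxc11 read 1.57, 3.07 and 3.35 CPM against 0.576, 0.705 and 1.00 CPM (-1.80 ± 0.33, adjusted p = 3.7e-04). Hoxb2 was called up at 1.85 ± 0.63 (adjusted p = 0.033), with 0.0508, 0.414 and 0.501 CPM against 0.480, 2.16 and 1.11 CPM. Its groups overlapped, and the call was lost without shKap1 replicate 2 (1.22, adjusted p = 0.18), shKap1 replicate 3 (1.91, adjusted p = 0.058), shEmpty replicate 1 (1.41, adjusted p = 0.098) or shEmpty replicate 2 (2.01, adjusted p = 0.07). The rise in WT was larger (6.37, with a difference of -4.52, adjusted p = 0.014). WT read 0, 0.0711 and 0.0708 CPM in shEmpty and 2.36, 5.41 and 6.82 CPM in shKap1, so the size of that difference rests on controls near 0.

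Signalling targets were read next, in cells held in inhibitors of MEK and GSK3. Of 25 ERK response genes 3 were called up and 3 down (median -0.16), where WT had 2 up and 7 down. Etv4, an ETS factor induced by FGF, read 76.0, 56.4 and 51.1 CPM against 16.7, 11.5 and 12.9 CPM (-2.16 ± 0.15, adjusted p = 3.1e-08). Etv1, its relative, read 25.6, 9.67 and 9.33 CPM against 7.44, 2.54 and 3.30 CPM (-1.74 ± 0.44, adjusted p = 0.0079), where the value was -1.15 without shEmpty replicate 1, -2.33 without shKap1 replicate 1 and not called in a fit of the 6 libraries alone (adjusted p = 0.079). Phlda1 rose from 1.73, 1.97 and 2.08 CPM to 8.79, 6.11 and 4.41 CPM (1.72 ± 0.22, adjusted p = 9.0e-06) and Fos, an immediate early gene, by 1.59 ± 0.31 (adjusted p = 6.5e-04). Of 29 Wnt genes 3 were called up and 6 down (median -0.24), with 3 down without shEmpty replicate 2 or without shKap1 replicate 1 and 9 down without shEmpty replicate 1, where WT had 4 up and 3 down. Wnt8a, a ligand, had 0.508, 0.311 and 0.116 CPM against 6.34, 1.46 and 1.56 CPM (3.34 ± 0.72, adjusted p = 0.0032; 2.31 without shKap1 replicate 1 and 2.74 without both replicates 1). Fzd1, a receptor, was called up at 1.19 ± 0.24 (0.97 without shEmpty replicate 1 and 0.86 without both replicates 1, under 2-fold). Cdx1, a Wnt target, read 13, 32.8 and 27.3 CPM against 4.37, 12.5 and 9.31 CPM (-1.49 ± 0.46, adjusted p = 0.026), a call lost without shEmpty replicate 2 (-1.25, adjusted p = 0.088), shEmpty replicate 3 (-1.44, adjusted p = 0.064), shKap1 replicate 1 (-1.21, adjusted p = 0.081) or shKap1 replicate 3 (-1.57, adjusted p = 0.058). Of 28 Nodal and BMP genes 1 was called up and 1 down (median -0.10; WT none up and 5 down), the latter Bmp4, a ligand, at 21.7, 11.9 and 12.2 CPM against 7.64, 3.95 and 4.23 CPM (-1.53 ± 0.31, adjusted p = 0.0012).

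Targets of p53 were called in the rising direction alone in DNMT TKO. Of 29 tested, 7 were called up (24.1%) and none down, with a median of 0.53, and 21 were higher at an adjusted p below 0.05 without the fold threshold. In WT 4 were up and 1 down with a median of 0.07, and the difference was called for 5 genes, all more positive in DNMT TKO. Pmaip1 (Noxa), a BH3-only death protein, had 1.57, 2.93 and 4.39 CPM in shEmpty and 81.1, 75.1 and 62.3 CPM in shKap1 (4.57 ± 0.24, adjusted p = 1.6e-08). WT libraries had 50.5, 65.1 and 63.6 CPM before knockdown and 138, 182 and 181 CPM after it, so the shEmpty libraries of DNMT TKO lay below the other 9, and the difference of the changes was 3.09 (adjusted p = 1.4e-05). Ddit4l, an inhibitor of mTOR, read 11.7, 8.18 and 8.60 CPM against 45.1, 45.2 and 41.7 CPM (2.22 ± 0.13, adjusted p = 6.0e-10). Fas, a death receptor, had 0.254, 0.518 and 0.308 CPM against 1.63, 2.63 and 1.89 CPM (2.45 ± 0.36, adjusted p = 4.4e-05). Ano3, a scramblase of the anoctamin family, read 3.96, 2.45 and 2.00 CPM against 13.8, 11.3 and 10.2 CPM (2.09 ± 0.22, adjusted p = 9.0e-07; difference 2.16, adjusted p = 5.3e-05). Mdm2, the p53 ubiquitin ligase, Cdkn1a (p21) and Bax were named after their values were seen. Mdm2 read 180, 163 and 176 CPM against 295, 311 and 298 CPM, higher by less than 2-fold (0.80 ± 0.05, adjusted p = 3.0e-09), and Cdkn1a 142, 182 and 183 CPM against 235, 240 and 257 CPM (0.53 ± 0.10, adjusted p = 7.5e-04). Bax had 0.09 with overlapping groups (adjusted p = 0.28).

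Cell death and cell cycle genes moved little outside that list. Of 25 death regulators 1 was called up and none down (median 0.01; WT 4 up), Casp8, the initiator caspase of death receptors, at 5.03, 12.6 and 12.5 CPM against 35.2, 44.3 and 36.3 CPM (1.92 ± 0.26, adjusted p = 9.4e-05), less than in WT (difference -1.75, adjusted p = 0.0071). Of 35 cell cycle genes 2 were called up and none down (median -0.18; WT 1 up and 1 down), while 19 were lower and 5 higher at an adjusted p below 0.05 without the fold threshold. Rb1, the retinoblastoma protein, read 18.8, 19.6 and 22.2 CPM against 54.0, 64.9 and 56.2 CPM (1.53 ± 0.08, adjusted p = 2.4e-10), and Ccnd2, cyclin D2, read 1.88, 1.35 and 1.35 CPM against 8.21, 5.64 and 5.75 CPM (2.11 ± 0.20, adjusted p = 2.2e-07). Integrated stress response genes had 4 up and none down among 28 (median 0.26), where WT had 2 up. Ddit4, an inhibitor of mTOR, read 19.5, 30.7 and 31.3 CPM against 83.9, 103 and 112 CPM (1.86 ± 0.22, adjusted p = 3.9e-05). Slc7a11, the cystine importer, had 0.965, 0.621 and 0.617 CPM against 1.87, 3.01 and 3.15 CPM (1.91 ± 0.23, adjusted p = 6.2e-06), far under the 16.9 to 21.7 CPM of the WT libraries (difference 2.12, adjusted p = 3.5e-05). Cebpb (1.33 ± 0.26; difference 1.49, adjusted p = 0.0037) and Atf3 (1.29 ± 0.25), both stress-induced bZIP factors, completed the list's calls.

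Interferon and nucleic acid sensing genes were raised in part and from low levels. Of 36 tested, 12 were called up (33.3%) and 3 down, with a median of 0.57, where WT had 6 up and 2 down. Such genes often carry an interferon-stimulated response element, whose core was searched as GAAA, any 2 bases and GAAA again, on both strands in the 300 bases from 250 before to 50 after the start. It was found in 16 of the 36 (44.4%), in 7 of the 12 called up (58.3%), in all 3 called down (Oas1a and, named after their values were seen, Ddx60 and Oas3) and in 706 of 20321 windows of all genes tested (3.47%). Matches before 5 genes are shown, with 10 bases on each side, because these genes were called in opposite directions; capitals mark the match, read on the gene's own strand from mm9:
Isg15 (chr4:155574980-155575009, - strand, called up): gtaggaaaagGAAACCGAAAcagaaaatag
Usp18 (chr6:121195855-121195884, + strand, called up): ggatctagggGAAAACGAAAgcttggcggt
Ifit1 (chr19:34715284-34715313, + strand, called up, match on the other strand): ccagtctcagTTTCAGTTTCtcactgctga
Oas2 (chr5:121199914-121199943, - strand, called up, match on the other strand): cacacttgagTTTCGATTTCctaggttcct
Oas1a (chr5:121357535-121357564, - strand, called down): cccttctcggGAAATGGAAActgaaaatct

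Each line shows a single match. Isg15, Usp18, Ifit1 and Oas1a had others in the window that are not marked, which in Isg15 and Oas1a overlap the match shown. A match is a description of these letters and not a site of binding. Isg15, a ubiquitin-like effector, had 0.0508, 0.0345 and 0.154 CPM in shEmpty and 1.63, 1.08 and 1.11 CPM in shKap1 (3.89 ± 0.49, adjusted p = 8.5e-06; difference from WT 2.16, adjusted p = 0.042). Ifit1, a sensor of foreign RNA caps, had 0.0508, 0 and 0.0385 CPM against 0.720, 0.893 and 0.593 CPM (4.51 ± 0.66, adjusted p = 5.5e-05), and Usp18, the protease that removes Isg15, had 0, 0 and 0.0385 CPM against 0.768, 0.517 and 0.630 CPM (5.10 ± 0.80, adjusted p = 1.0e-04). These 3 rest on 93, 52 and 45 reads over the 6 libraries and were named after their values were seen, with groups that did not overlap. Oasl2 had 0.457, 1.00 and 1.16 CPM against 5.81, 5.60 and 5.60 CPM (2.65 ± 0.35, adjusted p = 1.3e-05), and Oas2, a synthase that activates RNase L, had 4.16, 3.56 and 3.58 CPM against 12.1, 10.4 and 13.2 CPM (1.67 ± 0.17, adjusted p = 5.7e-07). Zbp1, a sensor of Z-form nucleic acids, rose by 1.89 ± 0.37 (adjusted p = 6.3e-04). Oas1a, a family member in the same gene cluster as Oas2, went the other way, from 67.0, 73.3 and 72.9 CPM to 12.7, 24.2 and 24.6 CPM (-1.79 ± 0.19, adjusted p = 7.5e-06), and fell further in WT (difference 1.84, adjusted p = 0.001).

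Genes of the matrix, proteases and contractile apparatus had 7 up and 2 down among 31 (median -0.00; WT 8 up and 3 down), with 6 differences from WT called more positive and 3 more negative. Mmp10, a secreted metalloprotease, had 0 reads in every shEmpty library and 10.4, 5.93 and 4.75 CPM in shKap1, at least 170-fold higher (adjusted p = 1.3e-08). Thbs1, thrombospondin, had 0.660, 0.449 and 0.501 CPM against 4.71, 7.29 and 5.15 CPM (3.43 ± 0.22, adjusted p = 2.5e-09). Mmp12, the macrophage elastase, rose by 3.28 ± 0.46 (adjusted p = 2.4e-05). Each of the 3 was called up in WT. Cnn2, calponin, read 8.89, 9.25 and 9.10 CPM against 2.83, 4.04 and 3.15 CPM (-1.44 ± 0.16, adjusted p = 1.9e-06). Lysosomal and phagocyte-type genes had none up and 2 down among 22 (median -0.33; WT 1 up and 4 down), with 12 lower and 1 higher at an adjusted p below 0.05 without the fold threshold. Hexa, a hexosaminidase subunit, read 99.5, 116 and 116 CPM against 41.1, 58.1 and 56.2 CPM (-1.09 ± 0.10, adjusted p = 4.3e-07; -0.97 without shKap1 replicate 1, under 2-fold), and Gpnmb, a melanosome glycoprotein, read 1.57, 1.55 and 1.97 CPM against 0.528, 0.188 and 0.408 CPM (-2.16 ± 0.28, adjusted p = 1.2e-05; difference from WT 1.19, adjusted p = 0.043).

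The silencing machinery itself changed by less than 2-fold outside Trim28. Of 28 genes for KAP1 partners and H3K9 methylation, Trim28 alone was called, while 15 were lower and 3 higher at an adjusted p below 0.05 without the fold threshold (median -0.18; WT 1 up and 1 down). Setdb1, the methyltransferase that works with KAP1, was named after its values were seen and read 390, 325 and 322 CPM against 219, 246 and 239 CPM (-0.56 ± 0.07, adjusted p = 1.5e-05). Of 19 genes of DNA methylation and demethylation edgeR called none in either direction, and limma-voom and DESeq2 called none, with 4 higher and 5 lower at an unadjusted p below 0.05 (median -0.02; WT 3 up). Over all 20321 genes tested, 4819 were higher and 4019 lower at that unadjusted threshold, so such counts are common in these data. Uhrf1, which recruits Dnmt1 to replicated DNA, read 922, 957 and 971 CPM against 529, 580 and 611 CPM (-0.73 ± 0.05, adjusted p = 7.3e-09). Tet1, a 5-methylcytosine dioxygenase, read 667, 537 and 530 CPM against 678, 509 and 597 CPM (0.04 ± 0.11, adjusted p = 0.81). Of 21 KRAB zinc finger genes with known targets edgeR, limma-voom and DESeq2 called none, with 8 higher and 4 lower at an unadjusted p below 0.05 (median 0.11; WT 1 up and 2 down). Zfp57, which guards imprinted control regions, read 619, 497 and 502 CPM against 612, 442 and 486 CPM (-0.07 ± 0.10, adjusted p = 0.65), and Zfp568, which represses Igf2 in placenta, had -0.20 ± 0.05 (adjusted p = 0.0041).

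Of 32 Polycomb genes none was called by edgeR, limma-voom or DESeq2, with 5 higher and 13 lower at an unadjusted p below 0.05 (median -0.14; WT 1 up). Suz12, a subunit of PRC2, read 919, 976 and 1051 CPM against 623, 739 and 680 CPM (-0.53 ± 0.06, adjusted p = 2.2e-06), and Mtf2, its accessory subunit, had -0.26 ± 0.09 (adjusted p = 0.034). Cholesterol synthesis genes gave no call among 23 with any of these tools, with 3 higher and 10 lower at an unadjusted p below 0.05 (median -0.12; none called in WT). Srebf2, a transcription factor of this pathway, had -0.34 ± 0.05 (adjusted p = 2.4e-05). The unadjusted counts of both lists stand beside 4819 higher and 4019 lower over all 20321 genes tested. The 336 numbered zinc finger genes tested had 30 up (8.93%) and 2 down (0.595%), the first near and the second below the share over all genes, with a median of 0.09 (WT 37 up and 3 down). Zfp560, not characterised here beyond its name, read 4.21, 5.77 and 6.28 CPM against 29.7, 43.9 and 31.7 CPM (2.68 ± 0.15, adjusted p = 3.7e-10), and Zfp352, a retrogene of the 2-cell stage, had 0.457, 2.00 and 1.5 CPM against 5.76, 13 and 9.16 CPM (2.74 ± 0.35, adjusted p = 2.8e-05). Zfp872 (2.90) and Zfp353 (2.57) were the other members with the largest changes among those with at least 100 reads.

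Receptors of smell and taste were rarely measured. Of 1439 in the annotation 49 were tested, with 25 called up and 1 down (WT 18 up and 3 down), and 19 of the 49 had 0 reads in a whole group, so the median of 2.48 became 1.33 with bounds. A gene so low passes the filter mostly through the group where it is higher, so the count supports nothing beyond itself. Vmn1r53, a vomeronasal receptor, had 0.762, 1.31 and 1.04 CPM against 6.05, 5.64 and 6.08 CPM (2.48 ± 0.21, adjusted p = 7.0e-08). Olfr901 rose by 4.28 ± 0.46 (adjusted p = 2.8e-06) and Olfr376 by 3.04 ± 0.50 (adjusted p = 1.2e-04; 4.33 without shEmpty replicate 2). Olfr153, which lies beside Pramel6 and Pramel7 on chromosome 2, had 1.27, 1.73 and 1.16 CPM against 0.288, 0.329 and 0.297 CPM (-2.18 ± 0.32, adjusted p = 8.0e-05), with 0 reads in all 3 WT shKap1 libraries. Its difference between lines was called (adjusted p = 0.0034), with a fitted size that rests on that group at 0.

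**Figure D4:**
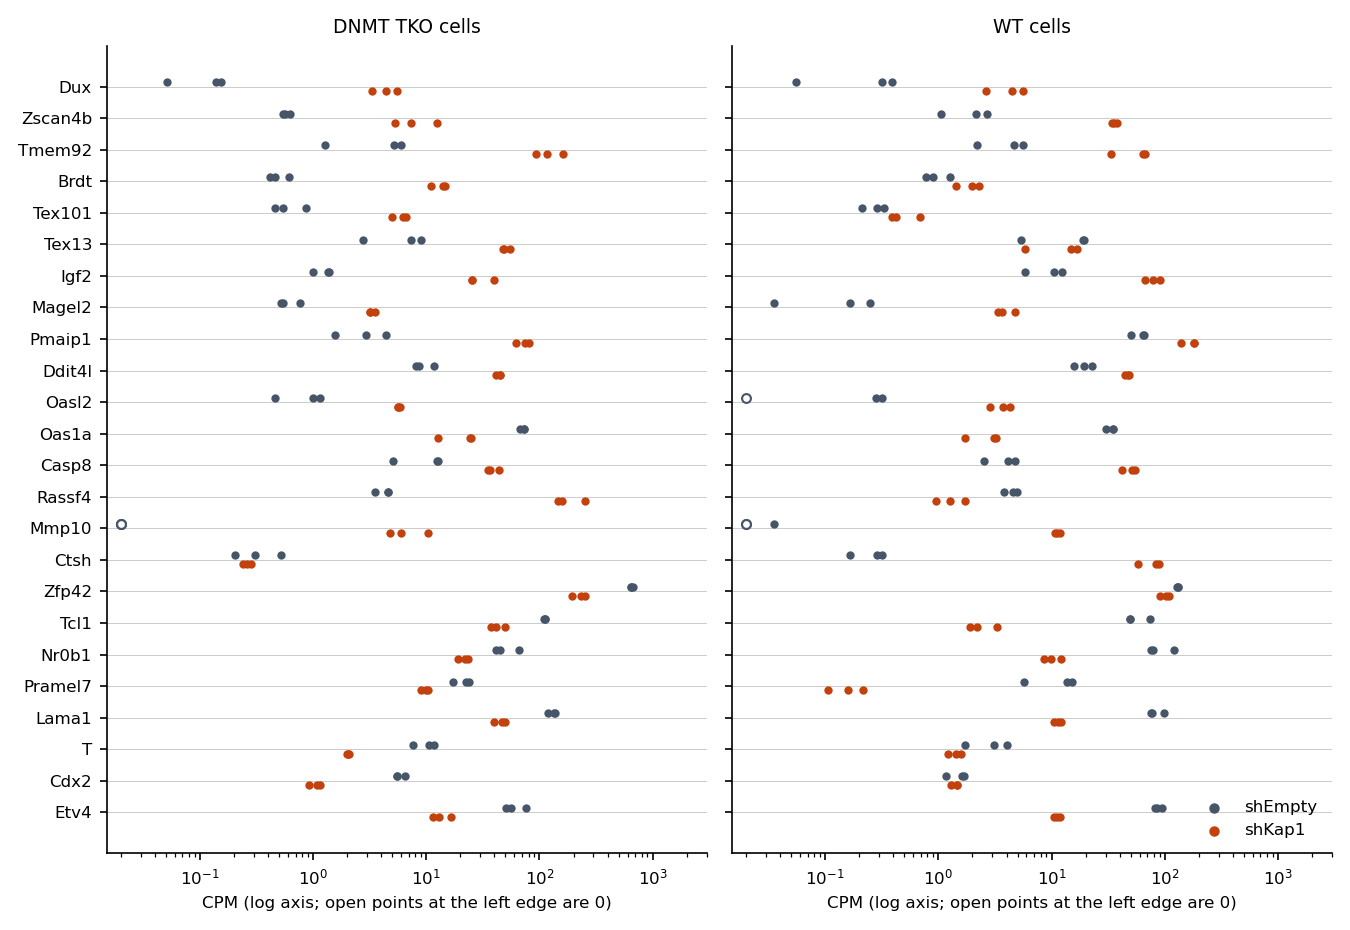
CPM (log axis) of 24 named genes in each library of DNMT TKO (left) and WT (right), with shEmpty above shKap1 in each row and open points for 0. Dux, Zscan4b and Tmem92 rise in both lines, Brdt, Tex101 and Tex13 are called up in DNMT TKO and not in WT, and Ctsh is higher after knockdown in WT alone.

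Most of the genes with the largest differences in the negative direction were called up in WT and not in DNMT TKO. Ctsh, a lysosomal cysteine protease (chr9:89948990-89970927, + strand), had 0.203, 0.518 and 0.308 CPM in shEmpty and 0.240, 0.282 and 0.260 CPM in shKap1 of DNMT TKO with overlap (-0.46 ± 0.47, adjusted p = 0.5). WT went from 0.167, 0.285 and 0.318 CPM to 57.8, 84.2 and 89.0 CPM, and the difference was -8.60 (adjusted p = 5.8e-08). AA792892 had 4 reads in all over the 6 DNMT TKO libraries and 18.8 to 20.1 CPM in WT shKap1 (difference -5.19, adjusted p = 0.022). For 3 others the DNMT TKO cells were already high without knockdown. Nlrp9b, an innate immune receptor, read 21.4, 21.1 and 22.9 CPM against 41.7, 38.6 and 39.3 CPM, higher by less than 2-fold (0.87 ± 0.13, adjusted p = 4.1e-05), where WT went from 0.814 to 1.22 CPM to 42.7 to 58.0 CPM (difference -4.74, adjusted p = 2.9e-10). Dcdc2a, a doublecortin-domain protein, read 14.6, 16.6 and 16.9 CPM against 15.1, 14.1 and 16.1 CPM (-0.09 ± 0.11, adjusted p = 0.57; difference -4.68, adjusted p = 2.4e-10), and Gm14443 read 40.1, 36.7 and 38.1 CPM against 32.8, 36.7 and 32.2 CPM (-0.18 ± 0.10, adjusted p = 0.2; difference -4.62, adjusted p = 2.9e-10). In WT shEmpty both stood below 1 CPM and rose on knockdown. Cyp4a12b, a fatty acid hydroxylase, was called up in both lines with a called difference of -4.67 (adjusted p = 0.013). It had 1.02, 0.863 and 0.848 CPM against 8.55, 5.5 and 7.64 CPM (3.00 ± 0.27, adjusted p = 5.6e-07), while WT shEmpty libraries had 0 reads, so the size of its difference from WT depends on those zeros.

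Called genes were set beside the KAP1, H3K9me3, H3K4me3 and H3K27me3 regions deposited for wild-type cells and beside retrotransposon integrants, within 10 kb of the gene start. A KAP1-dependent H3K9me3 region lay near 353 genes called up (17.3%), 15 called down (3.06%) and 1484 of all tested (7.30%). Of genes with such a region 23.8% were called up, against 10.1% of all genes tested. A KAP1 region lay near 23.1% of genes called up, 12.0% of those called down and 15.4% of all. H3K4me3 regions were less frequent near genes called up (56.7%) than near those called down (75.1%) or all genes (77.6%), while H3K27me3 regions were near 37.2% and 46.9% of them against 25.5% of all. IAPEz integrants lay near 3.87% of genes called up against 0.408% of those called down and 1.51% of all, and MERVL or MT2_Mm near 5.58%, 0.816% and 2.41%. ETn or MMETn integrants lay near 3.72% of genes called up, 0.612% of those called down and 1.07% of all. Within 2 kb of an integrant, 24 of 45 genes beside ETn or MMETn were called up (53.3%), 10 of 20 beside MMERVK10C (50.0%), 14 of 34 beside IAPEz (41.2%), 33 of 110 beside MERVL or MT2_Mm (30%) and 14 of 98 beside L1Md_A (14.3%). The share over all genes tested was 10.1%. These sets are small, and low genes in them pass the read filter mostly through libraries where they are higher. For genes called up in WT the shares within 10 kb were 17.5% for KAP1-dependent H3K9me3, 3.68% for IAPEz, 5.64% for MERVL or MT2_Mm and 3.27% for ETn or MMETn. The regions were mapped in WT cells with methyltransferases, the shares were given no test, and reads that run from an element into a gene were not separated.

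**Figure D5:**
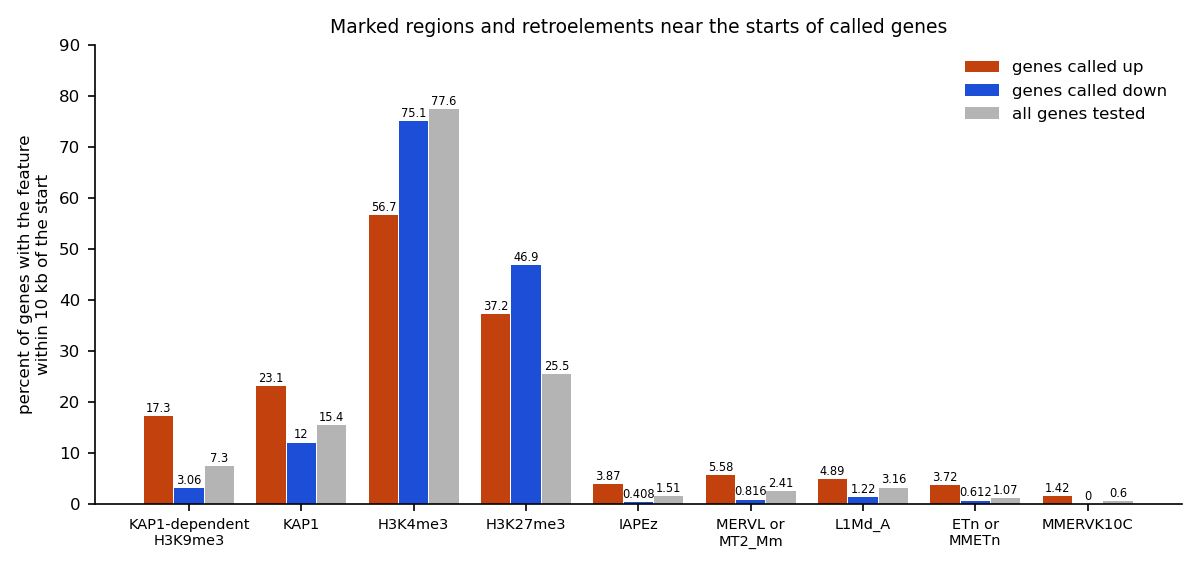
Percent of genes with each kind of region or integrant within 10 kb of the start, among genes called up, called down and all genes tested in DNMT TKO. For KAP1-dependent H3K9me3 the bars stand at 17.3%, 3.06% and 7.30%, and for H3K4me3 at 56.7%, 75.1% and 77.6%.

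Protein-coding genes were 85.0% of genes called up and 88.8% of those called down, against 81.8% of genes tested. By type, 13.5% of processed transcripts, 10.4% of protein-coding genes, 7.82% of lincRNAs, 7.47% of pseudogenes and 0.881% of 227 snoRNAs were called up. Of the snoRNAs 1.76% were called down. By chromosome the share called up ran from 7.10% on chromosome 19 to 14.6% on chromosome 3, and chromosome 13 paired 12.3% up with 0.900% down. Genes without a symbol made 11 of the rises and 1 of the falls.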

How the data were processed

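Gene counts were deposited by the authors as whole-number counts of reads per gene for each library, made, per the labels, by aligning single reads of 100 bases to mm9, with HISAT2 2.0.1 in the submitters' notes (the alignment files named in the headers carry the default name of another aligner, TopHat, so the aligner is uncertain), and, per the file headers, by counting unique, strand-matched reads on exons with featureCounts (1.5.0-p1 in the file headers, 1.5.1 in the submitters' notes). Deposited region lists (KAP1 and histone marks of wild-type cells, and integrants) were used by position only, for distance to gene starts. From the counts, edgeR 4.0.16 (R 4.3.3) fitted its quasi-likelihood model with TMM scaling to the 16 RNA libraries in 6 groups, without a replicate block, for genes with at least 16 reads over them; 17670 genes fell under that filter. Adjusted p-values are Benjamini-Hochberg within each contrast, and an SE is the absolute log2 change over the square root of F. A count of 0 in a group was replaced by a floor of 3 reads over the group for bounds. The precision is that of 3 libraries per group (2 in TET TKO) and of the counts given. The p-values use a spread that edgeR estimated from all 16 libraries together. For Trim28 in DNMT TKO edgeR's adjusted p was 1.7e-04 with the 6 libraries alone and 0.028 with a replicate block as well. For its difference from WT it was 0.0028 with the 12 libraries of both lines and 0.034 with a block as well.

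Named genes were Trim28 and the knocked-out genes, the 10 largest rises and falls without overlap among called genes with at least 500 reads, the 5 largest gains and losses of mean CPM among called genes, up to 4 called members of each list with at least 100 reads (the 2 highest where none was called), and the 6 largest called differences each way with at least 500 reads. The members and lists were chosen with earlier results of these data known. Alternatives used limma 3.58.1 (voom) and DESeq2 1.42.0, other scalings and filters, a replicate block, fewer libraries and leaving out libraries. One gene that this rule names is not reported here. MeDIP data were not used here, and WT and TET TKO cells only for comparison. Motifs and the hairpin target were searched in mm9.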

Additional observations from a re-analysis of the deposited data

Results flagged for a closer look

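The knockdown effect differed between DNMT TKO and WT, by edgeR's test of the difference itself, for 43 of the genes named by rule. Trim28 was among them. The rule itself named the largest called differences each way, and it named most other genes for called changes on knockdown. The count of 43 was therefore partly fixed by the choice of genes and is only a description. Over all 20321 genes tested, the difference was called for 1450. Values are the DNMT TKO minus the WT log2 change, and the weaker loss of Trim28 in DNMT TKO (1.28) and the genotype cannot be told apart in any of them. Nothing here was weighed as a cause.

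Among genes with the largest changes the differences were 9.83 for Gm14047, 12.00 for D930020E02Rik, 6.87 for 1700018A04Rik, 7.00 for Olfml2a, 7.27 for Rassf4, 6.82 for Sh3tc2, 3.14 for C330046G13Rik, 2.70 for Pgc and 1.35 for Pttg1. The first 3 of these rest on controls at or near 0 reads, and those of Olfml2a and Sh3tc2 on DNMT TKO shEmpty libraries of at most 0.154 and 0.385 CPM. For Gm14047 and D930020E02Rik, with DNMT TKO shEmpty at 0 reads, for Cyp4a12b, with WT shEmpty at 0, and for Olfr153, with WT shKap1 at 0, the value is a fitted one and no bound. More negative effects in DNMT TKO were -8.60 for Ctsh, -5.19 for AA792892, -4.74 for Nlrp9b, -4.68 for Dcdc2a, -4.67 for Cyp4a12b and -4.62 for Gm14443.

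Pluripotency and early-embryo genes gave -1.17 for Zfp42, 3.16 for Tcl1, 1.92 for Nr0b1, 4.63 for Pramel6, 4.98 for Pramel7 and -1.64 for Pramef8. Lineage genes gave -2.37 for Cdx2, -1.25 for T, 1.35 for Lama1 and -4.52 for Hoxb2, the last with WT controls near 0 reads. Germline genes gave 3.76 for Brdt, 2.35 for Tex101 and 3.20 for Tex13. Imprinted genes gave 1.59 for Igf2, -2.22 for Magel2, 1.35 for Dio3 and 1.76 for Cobl, while over the whole imprinted list 11 differences were more negative and 3 more positive. The value of Magel2 rests on WT shEmpty libraries of at most 0.248 CPM. Stress, death and interferon genes gave 3.09 for Pmaip1, 2.16 for Ano3, 2.12 for Slc7a11, 1.49 for Cebpb, -1.75 for Casp8 and 1.84 for Oas1a. The others were 5.21 for the olfactory receptor Olfr153, 1.34 for Pcdha11, -1.11 for Bglap3 and 1.19 for Gpnmb.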

How the results depend on the processing

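The counts of calls in DNMT TKO stayed within 1.5 times of 2043 up and 490 down under RLE scaling, library totals, no filter, a stricter filter, limma-voom (2103 and 518), DESeq2 (1747 and 435), the 6 libraries alone (1905 and 442) and every set of libraries left out. Without the fold threshold they were 4002 and 3168, and the differences from WT 2159 more positive and 1579 more negative, since every change then counts. Leaving out libraries gave 1699 to 1885 up, 457 to 587 down, 773 to 1058 and 449 to 677 differences, and for Trim28 -2.30 to -1.91, with differences of 1.09 to 1.49 from WT and 1.16 to 1.47 from TET TKO. A KAP1-dependent H3K9me3 region lay within 2 kb of 4.41% and within 50 kb of 46.3% of genes called up (all genes tested 1.67% and 29.1%). For KAP1 regions the shares were 7.44%, 58.9% and, over the gene body, 25.1% (all genes 5.57%, 49.1% and 15.3%), and for IAPEz 0.685%, 13.2% and 5.48% (all genes 0.167%, 7.71% and 2.01%), as the windows differ in length. Among named genes not called, the sign of Tet1 ran from -0.08 to 0.12, that of Zfp57 from -0.23 to 0.00 and that of AA792892 from -3.10 to 0.13 when libraries were left out. Calls of 13 of 124 named genes were lost under at least 1 alternative, and of 992 list counts 61, in 18 lists, moved by over 1.5 times, as 12 of 496 list medians, in 6 lists, moved by over 0.25.

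Same-numbered libraries of the 2 hairpins had correlated deviations of 0.33, 0.174 and 0.078 in DNMT TKO, 1 of them under the 0.1 asked for. In WT they were 0.274, 0.118 and 0.121, all above it. The main fit took the numbers as pairs in no line. In both lines replicate 1 correlated negatively with replicates 2 and 3 of the other hairpin. In DNMT TKO shEmpty replicate 3 correlated best with shKap1 replicate 2 (0.177). With a replicate block 2067 genes were called up and 512 down, with 1001 and 553 differences, and with the block and fewer libraries 2064 and 524. Depth limits genes under about 1 CPM, where few reads set the fold.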
